A study of Mus musculus with 5 samples.

Results

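Proteasome subunit transcripts were followed in the RNA of HL-1 cells, in the RNA of the microvesicles these cells release, and in microvesicle DNA. The members were all array probes whose gene symbol on the platform begins with Psm, followed by a letter from a to g and a number. This gave 64 probes of 43 genes, out of 25697 probes of 16593 named genes. They comprise 24 probes of 17 core particle genes (Psma and Psmb), 30 probes of 19 regulatory particle genes (Psmc and Psmd), 6 probes of 4 activator genes (Psme) and 4 probes of 3 assembly chaperone genes (Psmg).

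The proteasome is the protease that destroys proteins marked with ubiquitin. Its core particle is a barrel of stacked rings, in which the outer alpha subunits (Psma) form a gate and the inner beta subunits (Psmb) include the sites that cut. The regulatory particle caps the barrel, where ATPases (Psmc) unfold and thread the substrate, and non-ATPase subunits (Psmd) bind ubiquitin and remove it. In heart muscle the proteasome clears damaged and misfolded proteins, among them proteins of the contractile apparatus.

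The HL-1 line derives from mouse atrial heart muscle and was kept in Claycomb medium at 37 degrees and 5% CO2, and the labels give no treatment or allele. The groups were cell RNA (2 arrays), microvesicle RNA (2 arrays) and microvesicle DNA (1 array), and all came from this single line. The DNA was tailed with poly-T by terminal transferase, which allowed labelling in the manner of the RNA. Whether replicates are separate cultures is not stated in the labels, and the p-values below therefore cover only the spread between these arrays, possibly a technical one.

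Both cell arrays and microvesicle array 1 lay on chip 1, and microvesicle array 2 and the DNA array lay on chip 2. Microvesicle array 2 stood apart. Its median raw signal was 90.9 against 62.6 to 63.6 on the other RNA arrays, and over 3878 tested probes it correlated with microvesicle array 1 at 0.58, against 0.99 between the cell arrays (a description across probes, which are not independent). Chip and array cannot be told apart here, since a single microvesicle RNA array lay on each chip. Each difference is therefore given for each microvesicle array, and with chip 1 alone the value is that of microvesicle array 1. All 8 atrial muscle marker genes on the list, among them Myl4, Nppa and Tbx5, were detected in both cell samples, with 3 on the first microvesicle array and 7 on the second. None of 6 fibroblast genes and none of 3 blood genes were detected on any array, and Tek (raw signal 80.3 and 82.9) and Tagln (176 and 133) were the endothelial and smooth muscle genes detected on the cell arrays. The number of arrays limits the precision of every value.

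Detection was taken as a detection p under 0.01, meaning that under 1% of the negative control probes were as bright. Proteasome probes were detected more often than the array as a whole. Cell array 1 detected 25 of the 64 member probes (39.1%, exact binomial 95% interval 27.1 to 52.1) and cell array 2 detected 23 (35.9%, 24.3 to 48.9), where 16.3% and 14.1% of all probes were detected. Microvesicle array 1 detected 15 (23.4%, 13.8 to 35.7, against 7.88% of all probes) and microvesicle array 2 detected 37 (57.8%, 44.8 to 70.1, against 21.8%). The intervals cover counting over probes only, and probes of the same gene share their target.

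Core particle probes were detected more often than regulatory particle probes on each RNA array. Of the 24 core probes, 14 and 11 were detected on the cell arrays, with 8 and 17 on microvesicle arrays 1 and 2. Of the 30 regulatory probes, 6 and 7 were detected on the cell arrays, with 3 and 13 on microvesicle arrays 1 and 2. The exact intervals of the core and regulatory shares overlapped on every array (58.3%, 36.6 to 77.9, against 20%, 7.71 to 38.6, on cell array 1). Overlap of separate intervals does not show that shares are equal, and the difference between them was not tested. Detection depends on each probe's own brightness as well as on its transcript, so these shares do not compare transcript levels between the particles.

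**Figure D1:**
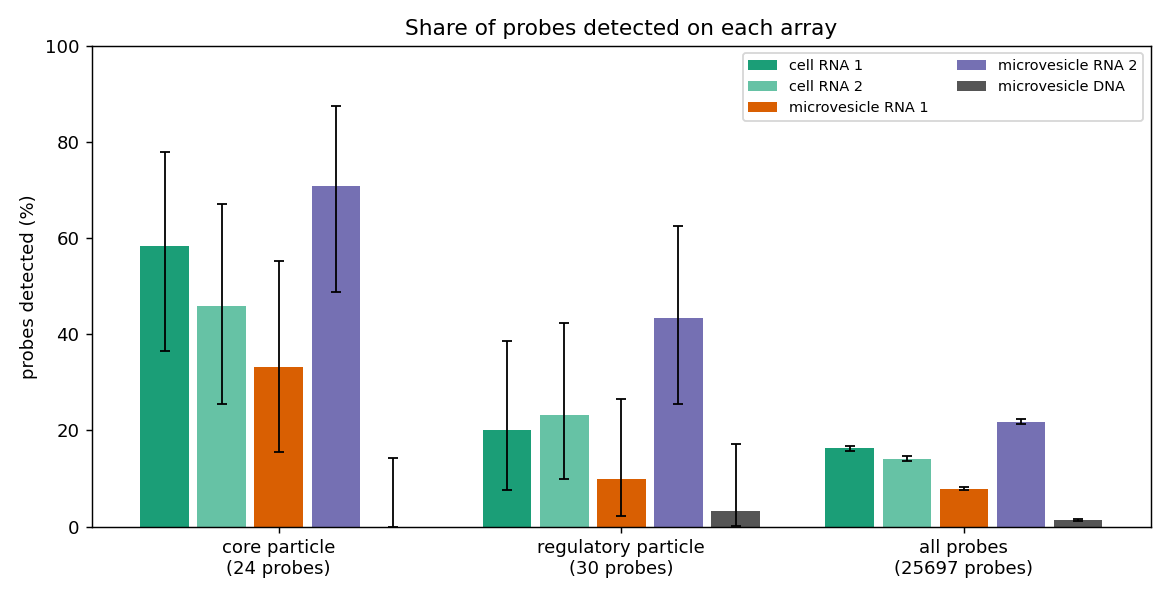
The share of probes detected on each of the 5 arrays, in percent, is shown for the core particle, the regulatory particle and all probes, with exact binomial 95% intervals as error bars. Core shares run from 33.3% to 70.8% on the RNA arrays, regulatory shares from 10% to 43.3%, and the DNA array lies at 3.33% or below in both.

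Each gene was then placed by where its probes were detected. Of the 64 probes, 13 (20.3%) were detected on all 4 RNA arrays, where 5.96% of all probes were. No member was seen by both vesicle arrays and missed by both cell arrays. Another 24 (37.5%) were detected on no RNA array, against 70.5% of all probes. The core genes without a detected probe on any RNA array numbered 4 of 17, namely the alpha ring genes Psma1 and Psma6, the catalytic gene Psmb5 and the immunoproteasome gene Psmb9. The regulatory genes without one numbered 8 of 19, namely the ATPase gene Psmc6, the base genes Psmd1 and Psmd2, the lid genes Psmd6, Psmd11 and Psmd14, and the assembly chaperone genes Psmd5 and Psmd9. These genes are not shown to be absent, since a dim probe gives the same result.

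A set of 14 probes from 13 genes was detected on microvesicle array 2 alone among the RNA arrays (21.9%, against 12.3% of all probes). In the core these were the alpha ring genes Psma3, Psma4 and Psma5 and the catalytic gene Psmb6. Psma5 was brightest, with a raw signal of 606 ± 27.8 (standard error over beads) on microvesicle array 2, 62.9 ± 3.84 on microvesicle array 1 and 74.2 ± 5.18 and 63.4 ± 3.38 on the cell arrays. Psma3 had 527 ± 13.4 on microvesicle array 2, 66.4 on microvesicle array 1 and 75.7 and 72.0 on the cell arrays. Each lay near background on 3 arrays and far above it on the other. Psmb6 had 310 on microvesicle array 2 against 62.7, 67.7 and 63.2 on the other RNA arrays, and Psma4 had 211 against 60.4, 69.1 and 70.3.

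In the regulatory particle the probes seen on microvesicle array 2 alone belonged to the ATPase genes Psmc1 and Psmc5, to the lid genes Psmd7 (both of its probes) and Psmd12, and to the chaperone gene Psmd10, which has 3 probes, of which another was detected in the cells and the remaining probe on no RNA array. Their raw signals on microvesicle array 2 ran from 118 to 182. Outside the particles the set held Psme3, which encodes a nuclear activator subunit (187), and Psme4, which encodes a large activator of its own kind and had 332 against 58.2 on microvesicle array 1 and 61.1 and 57.5 on the cell arrays. It also held a second probe each of Psme1 (166) and Psmg2 (158). With so few arrays in the group, a value present on a single vesicle array has no replicate, and these probes were not tested.

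**Figure D2:**
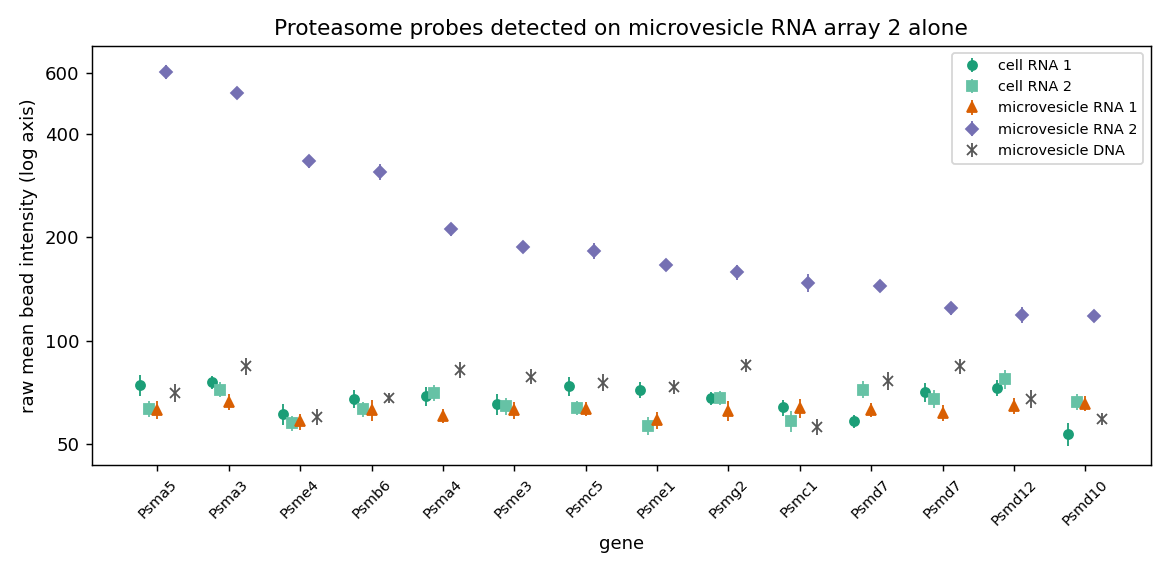
Raw mean bead intensity, on a log axis, is shown for the 14 proteasome probes detected on microvesicle RNA array 2 alone, with standard errors over beads. Values on microvesicle array 2 run from 118 to 606, while those on the other arrays stay below 90.

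Levels in microvesicles and cells were compared with limma, after background correction and quantile normalization to log2 values, over the 3878 probes that 2 or more of the 4 RNA arrays detected. This filter passed 25 member probes of 20 genes, with 22 seen by both cell arrays and 14 by both microvesicle arrays. Of all 3878 tested probes, 3470 were seen by both cell arrays and 1595 by both microvesicle arrays. The other 39 member probes did not enter, so nothing below describes all members. In bulk RNA, fewer vesicles with a transcript and less of it per vesicle cannot be told apart. No probe passed the test. At an adjusted p under 0.05, 0 of 25 member probes were higher and 0 lower in microvesicles, with 0% of all tested probes in either direction. At an unadjusted p under 0.05, 1 member probe was higher (5.52% of all tested probes) and 2 were lower (23.2%), that is 2 of 25 member probes against 900 of all 3878. The 2 lower probes were those of Psme1 and Psme2, and neither microvesicle array detected Psme2. Probes detected on the cell arrays alone enter with background values in the vesicles, so shares of lower probes depend on the filter. By order of the arrays, 11 of the 25 lay below both cell arrays on both microvesicle arrays (51.6% of all tested probes) and 3 lay above (14.4%). With median scaling 16 lay below (66.3%) and 1 above (2.6%), and without normalization 16 (64.3%) and 1 (2.24%).

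Each microvesicle array alone gave a different count. Microvesicle array 1 lay below both cell arrays in 16 of the 25 member probes (58.6% of all tested probes) and above in 9 (35.6%). Microvesicle array 2 lay below in 17 (75.3%) and above in 7 (21.7%). The median log2 difference of the 25 was -0.54, against -0.87 over all tested probes. On the microvesicle arrays it was -0.33 and -1.09, where all tested probes had -0.37 and -1.30. In these probes the median gap between the microvesicle arrays was 1.66 on the log2 scale, and that between the cell arrays 0.13.

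**Figure D3:**
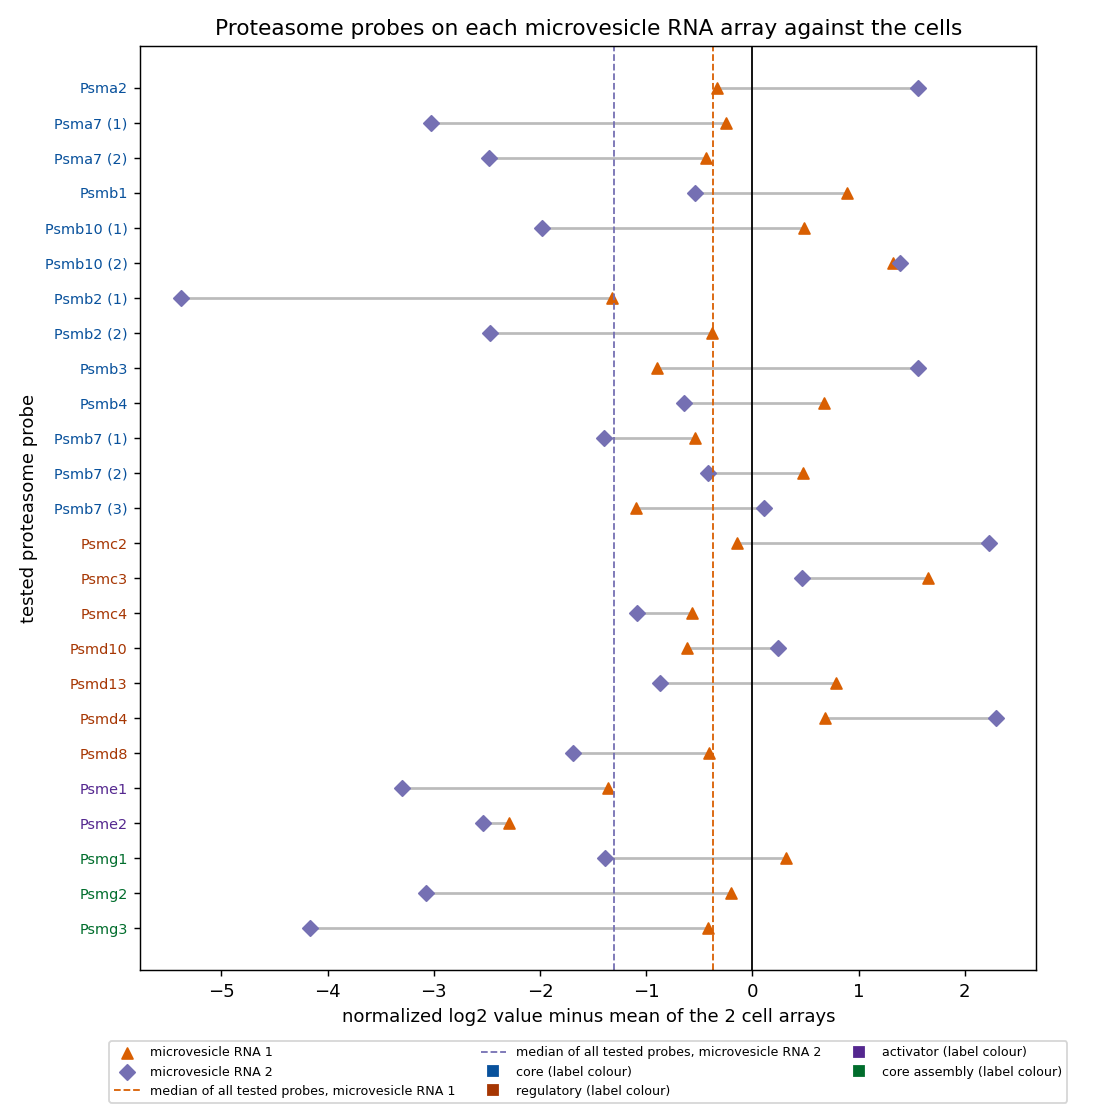
The normalized log2 value of each of the 25 tested proteasome probes, minus the mean of both cell arrays, is shown for microvesicle array 1 (triangles) and microvesicle array 2 (diamonds), joined by a line, with label colours for the particle and dashed lines at the medians of all tested probes (-0.37 and -1.30). The widest line belongs to the brightest Psmb2 probe (-1.32 and -5.38), while the second Psmb10 probe has its points close together (1.32 and 1.39). The Psme2 points are background values on both microvesicle arrays.

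In the alpha ring, Psma2 and Psma7 were tested. Psma7 was measured by a pair of probes that gave like values. The brighter had raw signals of 187 ± 9.76 and 192 ± 6.19 on microvesicle arrays 1 and 2 and 984 ± 33.5 and 708 ± 32.2 on cell arrays 1 and 2. The second had 134 and 193 in microvesicles and 706 and 476 in cells. Both vesicle arrays lay below both cell arrays with either probe. After normalization the log2 differences were -1.64 ± 1.09 (SE, n = 2 per group, limma adjusted p = 0.370) and -1.46 ± 0.83 (limma adjusted p = 0.316), and neither passed. The bulk of each came from microvesicle array 2 (-3.03 and -2.48, against -0.25 and -0.44 on microvesicle array 1). Psma2 had raw signals of 71.4 and 267 in microvesicles and 99.1 and 78.7 in cells, so the groups overlapped. It lay at 0.61 ± 0.79, with -0.33 and 1.56 on the microvesicle arrays.

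Among the structural beta subunits, Psmb2 had the lowest difference of any tested member. Its brightest probe had raw signals of 7355 ± 353 and 5789 ± 227 on the cell arrays, 650 ± 23.5 on microvesicle array 1 and 253 ± 8.92 on microvesicle array 2. All 4 arrays detected it, and the vesicle values lay far below the cell values. The log2 difference was -3.35 ± 1.55 (n = 2 per group, limma adjusted p = 0.254), with -1.32 and -5.38 on microvesicle arrays 1 and 2. A second Psmb2 probe lay lower in brightness (578 and 348 in cells, 116 and 167 in microvesicles) and gave -1.42 ± 0.85. Its remaining probe was detected on no RNA array, with signals from 58.8 to 94.6. The gene spans chr4:126677637-126709715 in GRCm38.p6, and which of its transcripts each probe reads was not analysed here.

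Psmb4 and Psmb1, also structural beta subunits, were detected on all 4 RNA arrays and kept closer to their cell values. Psmb4 had raw signals of 885 ± 38.2 and 1494 ± 49.8 in microvesicles and 2702 ± 105 and 1948 ± 62.8 in cells. Psmb1 had 320 and 588 in microvesicles and 925 and 655 in cells. In raw signal all vesicle values lay below the cell values for both genes. Quantile normalization gives every array the same distribution, and after it microvesicle array 1 lay above the cells for Psmb4 (0.67) and Psmb1 (0.89), while microvesicle array 2 lay below (-0.64 and -0.54). The differences of Psmb4 (0.01 ± 0.59) and Psmb1 (0.18 ± 0.62) were smaller than their errors and turned to -1.12 and -1.04 with median scaling. Psmb3 was near background on microvesicle array 1 (67.3) and at 278 on microvesicle array 2, against 109 and 78.8 in cells, with a difference of 0.33 ± 0.99.

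Of the catalytic beta subunits of the standard proteasome, Psmb7 was the tested gene. Its 3 probes were all dim, with cell signals from 80.4 to 148 and signals on microvesicle array 1 from 62.4 to 77.9, none of them detected there. Microvesicle array 2 detected all 3, at 117, 132 and 152. The log2 differences were -0.97 ± 0.46, 0.03 ± 0.46 and -0.50 ± 0.56, and the second, which was within its error of 0, turned to -0.25 with median scaling. Psmb5 had raw signals of 53.7 to 107 and Psmb6 was described above.

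The immunoproteasome subunits Psmb8, Psmb9 and Psmb10 replace the standard catalytic subunits in cells stimulated by interferon gamma. Psmb10 was the member of this group that was detected on all 4 RNA arrays. Its brighter probe had raw signals of 1715 ± 70.1 and 1377 ± 41.8 in cells and 490 ± 20.1 and 472 ± 16.2 in microvesicles, and its second probe had 280 ± 14.1 and 183 ± 10.7 in cells and 151 ± 10.6 and 593 ± 21.1 in microvesicles. The probes disagreed. The brighter gave -0.74 ± 0.98, with 0.49 and -1.98 on the microvesicle arrays. The second gave 1.36 ± 0.33 (n = 2 per group, limma unadjusted p = 0.0186, adjusted p = 0.120), with 1.32 and 1.39 on the microvesicle arrays, and 0.29 with median scaling. It was the member probe that was higher at an unadjusted p under 0.05. In raw signal this second probe lay below both cell arrays on microvesicle array 1 (151). Psmb8 was detected on cell array 1 alone (87.6 and 73.5 in cells, 66 and 84.1 in microvesicles), and Psmb9 on no array (54.8 to 82.7). Both lie in the same stretch of chromosome 17, Psmb9 at chr17:34182030-34187330 and Psmb8 at chr17:34198195-34201454.

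**Figure D4:**
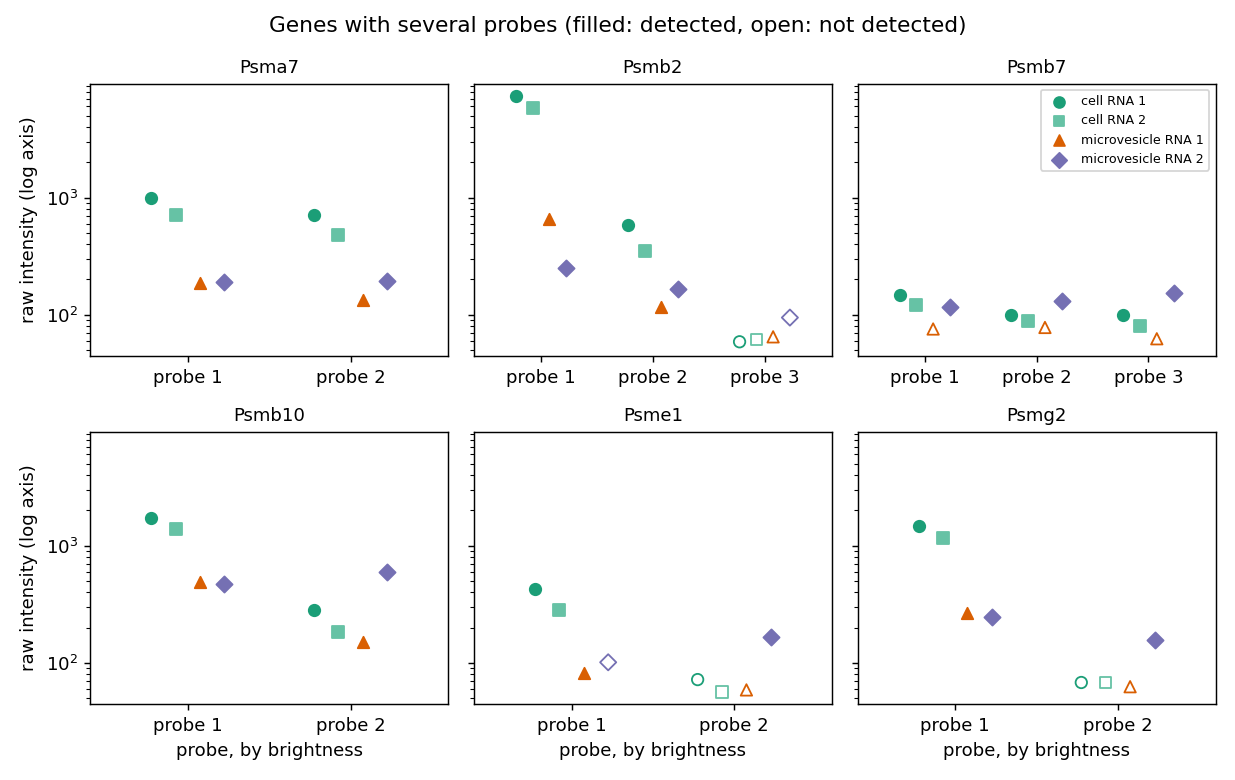
Raw intensity, on a log axis, is shown for each probe of 6 genes on the 4 RNA arrays, with filled symbols where the probe was detected. The probes of Psma7 give the same order of arrays, while the second probes of Psmb10, Psme1 and Psmg2 are brightest on microvesicle array 2 (593, 166 and 158).

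The error given for each log2 difference covers a single probe, so disagreement between probes of the same gene comes on top of it. Of the 43 genes, 17 had several probes. In 4 of these more than 1 probe was tested, and in 2 of the 4 (Psmb7 and Psmb10) the probes took opposite signs, although for Psmb7 the positive value was within its error of 0.

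In the regulatory particle, 3 of the 6 ATPase genes were tested. Psmc4 had raw signals of 223 and 157 in cells and 79.9 and 168 in microvesicles, with a difference of -0.83 ± 0.38 (n = 2 per group, limma adjusted p = 0.250) and -0.57 and -1.09 on the microvesicle arrays. Psmc2 had 105 and 93.6 in cells and 74.4 and 439 in microvesicles, with a difference of 1.05 ± 0.94 that rested on the second microvesicle array (-0.14 and 2.23). Psmc3 was close to background on 3 arrays (85.9 on microvesicle array 1, 77.5 and 81.7 on the cell arrays) and had 157 on microvesicle array 2. Its difference of 1.06 ± 0.57 therefore compares dim values. After normalization, Psmc4 lay below the cells on both vesicle arrays, Psmc3 above, and Psmc2 overlapped.

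Psmd4, a ubiquitin receptor of the regulatory particle, had the highest difference of any tested member. Its raw signals were 82.5 ± 3.82 and 481 ± 17.0 in microvesicles and 115 ± 4.77 and 98.3 ± 4.10 in cells. In raw signal microvesicle array 1 lay below the cells, and after normalization both vesicle arrays lay above. The log2 difference was 1.48 ± 0.68 (n = 2 per group, limma adjusted p = 0.251), with 0.68 and 2.29 on the microvesicle arrays and 0.89 with median scaling. The gene lies at chr3:95032688-95042614 and Psmb4 at chr3:94884324-94886958.

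The tested lid genes were Psmd8 and Psmd13. Psmd8 had raw signals of 185 and 147 in cells and 79.4 and 121 in microvesicles, below the cells on both vesicle arrays, with a difference of -1.05 ± 0.57 (n = 2 per group, limma adjusted p = 0.303). Psmd13 was bright on all 4 RNA arrays (1153 and 595 in cells, 318 and 523 in microvesicles). Its cell values themselves spread widely, and its difference of -0.04 ± 0.72 was within error, turning to -1.23 with median scaling. Psmd10, a chaperone of regulatory particle assembly also called gankyrin, had 90.8 and 81.2 in cells and 68.9 and 155 in microvesicles, with a difference of -0.19 ± 0.45.

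**Figure D5:**
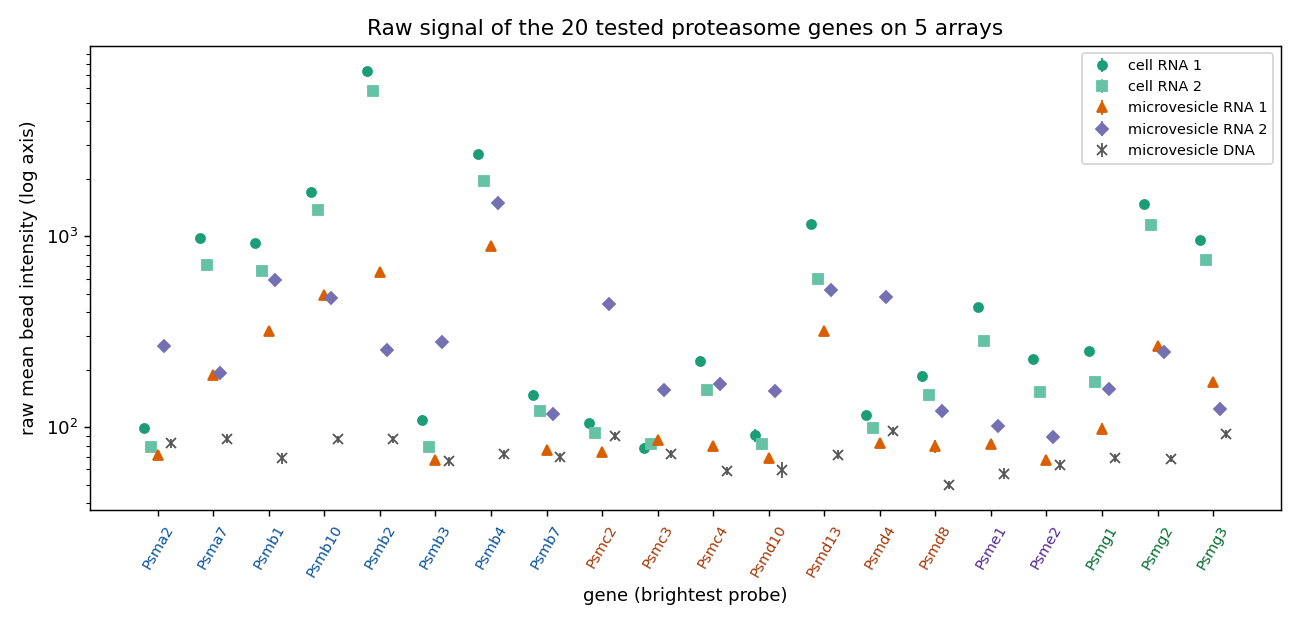
Raw mean bead intensity, on a log axis, is shown for the brightest probe of the 20 tested proteasome genes on the 5 arrays, with standard errors over beads and label colours for the particle. Psmb2 runs from 7355 in cells to 253 on microvesicle array 2, Psmd4 and Psmc2 are brightest on microvesicle array 2 (481 and 439), and the DNA array stays between 49.9 and 95.4.

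The core and regulatory particles were set side by side through these differences, with the brightest probe standing for each gene. The median difference was -0.37 over the 8 tested core genes and -0.04 over the 7 tested regulatory genes, a gap of -0.33 between core and regulatory particle. Microvesicle array 1 gave medians of -0.29 and -0.14, and microvesicle array 2 of -1.02 and 0.24. Core minus regulatory was thus -0.16 and -1.26. Over all 36 core and regulatory genes, without a filter, the medians were 0.06 and -0.04, and the core lay higher by 0.09. Of these, 4 core and 8 regulatory genes had no detected probe on any RNA array. The unfiltered medians thus take in background values and do not compare transcript levels. Within the core the tested genes ran from -3.35 (Psmb2) to 0.61 (Psma2), and within the regulatory particle from -1.05 (Psmd8) to 1.48 (Psmd4). Among the tested genes, the range within each particle was far wider than the gap of -0.33 between them. With median scaling the gap was -1.31, and with probes detected on all 4 RNA arrays, which left 5 core and 2 regulatory genes, it was -1.47. With the mean over the tested probes of each gene in place of the brightest probe, the core median was 0.09 and the gap turned to 0.13. No test was made of this gap.

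The activators Psme1 and Psme2 encode the alpha and beta subunits of PA28, a ring that opens the core without ATP and is induced by interferon gamma. Their tested probes lay below both cell arrays on both vesicle arrays. Psme1 had raw signals of 424 ± 22.8 and 282 ± 17.8 in cells and 82.0 ± 4.67 and 101 ± 4.95 in microvesicles. Psme2 had 227 ± 11.4 and 152 ± 7.22 in cells and 67.1 ± 3.43 and 89.0 ± 3.62 in microvesicles. Neither vesicle array detected Psme2, and Psme1 was detected on microvesicle array 1 at a detection p of 0.00752 and not on microvesicle array 2. With these probes, both genes stood clear of background in the cells and at or near it in the vesicles.

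For Psme2 only a bound can be given, and it was at least 2.46-fold lower in microvesicles (limma unadjusted p = 0.00318, adjusted p = 0.0917). For this bound, the dimmest detected probe of each microvesicle array stood in for Psme2 there. The measured means were 4.58 in microvesicles and 7 in cells on the log2 scale, the first of them a background value. The Psme1 difference was -2.33 ± 0.80 (n = 2 per group, limma unadjusted p = 0.0489, adjusted p = 0.172), with -1.36 and -3.30 on the microvesicle arrays. Only 1 of the 2 microvesicle arrays measured this Psme1 probe above background, so the value from array 2 and the mean take in a background reading. Neither gene passed the threshold over all tested probes. The vesicle values of Psme2 are background values, so its p is not ranked here against that of Psmb2, which all 4 RNA arrays detected. A second Psme1 probe went the other way and was detected on microvesicle array 2 alone, at 166. It was undetected at 58.7 on microvesicle array 1 and at 71.9 and 56.5 on the cell arrays.

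Psme1 and Psme2 are neighbours on chromosome 14, at chr14:55578494-55581527 and chr14:55587440-55591101, with 5912 bases between them. Their promoters are shown because the tested probes of both genes lay below the cells, and that of Psmd4 because it had the highest difference. Each runs from 250 bases before to 50 bases after a gene start, 5′ to 3′ on the gene's strand, from RefSeq for GRCm38.p6. Capitals mark the core of the interferon-stimulated response element (the letters GAAA, any 2 bases, then GAAA, searched on both strands), which in both promoters that hold it lies on the opposite strand. The Psme1 promoter is chr14:55578244-55578543 on the plus strand, the Psme2 promoter chr14:55591052-55591351 on the minus strand, and the Psmd4 promoter chr3:95042565-95042864 on the minus strand. RefSeq lists a second Psme2 start further inside the gene, with the window chr14:55590972-55591271, and neither Psme2 window holds the element core.
Psme1: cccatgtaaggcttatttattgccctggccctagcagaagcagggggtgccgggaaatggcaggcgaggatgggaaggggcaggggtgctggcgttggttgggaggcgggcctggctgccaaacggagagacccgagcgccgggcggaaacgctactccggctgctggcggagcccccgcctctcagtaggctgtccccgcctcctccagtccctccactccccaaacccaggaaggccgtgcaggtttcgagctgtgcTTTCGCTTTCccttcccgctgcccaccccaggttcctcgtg
Psme2: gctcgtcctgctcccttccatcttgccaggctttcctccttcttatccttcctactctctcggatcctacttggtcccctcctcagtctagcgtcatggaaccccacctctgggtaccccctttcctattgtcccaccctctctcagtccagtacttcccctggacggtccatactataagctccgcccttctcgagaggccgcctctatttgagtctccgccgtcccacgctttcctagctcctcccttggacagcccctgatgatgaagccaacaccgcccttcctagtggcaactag
Psmd4: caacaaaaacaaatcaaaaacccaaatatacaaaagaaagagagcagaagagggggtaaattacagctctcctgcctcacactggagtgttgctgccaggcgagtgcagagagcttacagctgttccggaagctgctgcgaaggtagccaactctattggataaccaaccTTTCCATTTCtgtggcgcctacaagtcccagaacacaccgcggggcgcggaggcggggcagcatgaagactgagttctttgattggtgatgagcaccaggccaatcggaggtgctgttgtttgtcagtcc

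Promoters were found for 37 of the 43 genes, 40 promoters in all. The interferon element core was in 4 of them (10%), those of Psme1, Psmd4, Psmb3 and Psmd9, against 3.44% of all 32851 promoters. The core of the antioxidant response element (TGACNNNGC, both strands), which is known to bind the factors that induce proteasome genes when the proteasome is blocked, was in 6 (15%) against 12.4% of all promoters. These were the promoters of Psmb5, Psmb6, Psmc6, Psmd12, Psmd9 and Psme4. A match of letters is not a binding site. Of the tested genes, Psme1, Psmb3 and Psmd4 hold the interferon element core, and their differences were -2.33, 0.33 and 1.48.

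The chaperones Psmg1, Psmg2 and Psmg3 help to assemble the core's alpha ring, and all 3 were detected on all 4 RNA arrays. Psmg2 had raw signals of 1480 ± 72.8 and 1150 ± 48.8 in cells and 266 ± 10.1 and 248 ± 9.51 in microvesicles. Psmg3 had 956 ± 44.6 and 752 ± 28.1 in cells and 173 ± 7.10 and 124 ± 4.47 in microvesicles. Psmg1 had 249 and 173 in cells and 97.8 and 159 in microvesicles. With these probes, every vesicle value lay below every cell value in raw signal. A second Psmg2 probe went the other way and was detected on microvesicle array 2 alone. It had 158 there, 62.5 on microvesicle array 1 and 67.9 and 68 on the cell arrays. After normalization the differences were -1.64 ± 1.12 for Psmg2, -2.29 ± 1.44 for Psmg3 and -0.54 ± 0.72 for Psmg1 (n = 2 per group, limma adjusted p = 0.383, 0.350 and 0.631). Nearly all of this lay on microvesicle array 2 (-3.07, -4.17 and -1.39), as microvesicle array 1 gave -0.20, -0.42 and 0.32.

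Which members were called depended on the scaling and on the spread assumed for the vesicles. With median scaling limma called 0 of the 25 member probes higher and 10 lower, where 0.181% and 42.6% of all tested probes were called. The 10 were both probes of Psma7, both bright probes of Psmb2, the brighter probe of Psmb10, and the probes of Psmd8, Psme1, Psme2, Psmg2 and Psmg3. Without normalization it called 0 higher and 9 lower (0.129% and 36.5%), and with a variance trend 0 higher and 1 lower, Psme2 (0.258% and 17.5%). Without a filter it called 0 in either direction (0.0623% and 0.634%). With chip as a block it called 8 higher and 8 lower (25% and 44.7%), without microvesicle array 2 it called 8 and 8 (25.7% and 43.9%), and without microvesicle array 1 it called 5 and 16 (17.1% and 70.1%). These last fits take their spread from the cell arrays and assume that the vesicle arrays vary as little. Psme2 enters every fit with background values on both microvesicle arrays. The bright Psmb2 probe, the first Psmb7 probe, Psmc4, Psme1 and Psme2 were called lower both without microvesicle array 1 and without microvesicle array 2, and Psmd4 and the second Psmb10 probe were called higher in both. Psmb1, Psmb3, Psmb4, Psmd13 and the brighter Psmb10 probe were called in opposite directions by these fits. The median log2 difference of all tested probes moved from -0.87 to -1.28 with median scaling, and that of the member probes from -0.54 to -1.35.

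Other genes that work with the proteasome were taken from a list of 28 symbols, of which 16 genes had a probe and 7 were tested. None passed the test of limma in either direction, with 1 higher (5.52% of all tested probes) and 1 lower (23.2%) at an unadjusted p under 0.05. Pomp, the maturation factor of the core, was measured on all 4 RNA arrays, at 111 and 560 in microvesicles and 179 and 129 in cells. Its difference was 1.60 ± 0.42 (n = 2 per group, limma unadjusted p = 0.0229, adjusted p = 0.126), with 1.25 and 1.96 on the microvesicle arrays and 0.66 with median scaling. Vcp, the ATPase that extracts ubiquitinated proteins, had 628 and 790 in microvesicles and 6289 and 5311 in cells, with a difference of -2.11 ± 0.74 (limma adjusted p = 0.177) and -1.23 and -2.99 on the microvesicle arrays. Ubqln1, a shuttle that carries ubiquitinated proteins to the proteasome, had 4 probes. The tested probe had 73.5 and 99.9 in microvesicles, detected on neither of those arrays, and 212 and 193 in cells (limma unadjusted p = 0.0166, adjusted p = 0.114). It was the gene of the list counted as lower at an unadjusted p under 0.05. Its p rests on background values in the vesicles, since the probe entered the test through the cell arrays alone. Another Ubqln1 probe was detected on microvesicle array 2 alone, at 536 against 57.3 on microvesicle array 1 and 67.9 and 67.4 in cells. After normalization, Vcp lay below both cell arrays on both vesicle arrays, Pomp lay above, and the probes of Ubqln1 disagreed. In raw signal Pomp lay below both cell arrays on microvesicle array 1 (111).

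The other tested genes of the list differed by less or rested on microvesicle array 2. The ubiquitin ligase gene Ube3a was at -1.03 ± 0.64, Ube3c, a ligase that acts on the proteasome, at 0.39 ± 0.68, and the shuttle gene Ubqln4 at 0.15 ± 0.51. Sem1, a small lid subunit outside the Psm names, was at 1.43 ± 1.76, with raw signals of 62.7 and 729 in microvesicles and 78.6 and 83.2 in cells. Nfe2l1, the transcription factor that induces proteasome genes, was detected on microvesicle array 2 alone (306, against 60.4 to 66.5 on the other RNA arrays).

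The microvesicle DNA array detected 1 of the 64 member probes (1.56%, exact binomial 95% interval 0.0396 to 8.40), where 1.33% of all probes were detected. This was Psmd4, at a raw signal of 95.4 ± 4.89 and a detection p of 0.00501. Psmd4 had 115 and 98.3 on the cell arrays and 481 on microvesicle RNA array 2. The DNA array was not normalized with the RNA arrays, so these raw signals do not compare amounts of DNA and RNA. On the DNA array Psmg3 (91.9) and Psmc2 (90.2) came next, at detection p-values of 0.0125 and 0.0201. No core particle probe was detected on the DNA array, 0 of 24 (interval up to 14.2%). The share of member probes was within the background, and the array has no replicate.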

How the data were processed

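Illumina mouse BeadChips in 1 colour measured 2 cell RNA, 2 microvesicle RNA and 1 microvesicle DNA extracts. Per the file headers, the authors deposited for each probe the mean bead intensity without background subtraction, its standard error over beads, the count of beads (a median of 41 per probe) and a detection p-value, which moves in steps of 1 in 798 negative controls. Per the submitters' processing notes, BeadStudio 3.3 was used. A second deposited table of background-subtracted intensity values, normalized in a way not given in the sources used here, served as an alternative. It keeps the rank of each array's raw signal (rank correlation 1), and its medians are 3.50 to 3.51.

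Raw signals of the 4 RNA arrays were processed with neqc in limma 3.58.1 (R 4.3.3), which models background from negative controls inferred through the detection p, adds an offset of 16, quantile-normalizes and takes log2. Probes detected at p under 0.01 on at least 2 RNA arrays entered a fit by lmFit and eBayes (two-sided, no block), and p-values were adjusted over all tested probes by Benjamini-Hochberg at 0.05. The fit was tested on simulated data with equal spread in both groups. The microvesicle arrays differed more from each other than the cell arrays, so that simulation does not cover these data. All 64 member probes matched RefSeq (GRCm38.p6) by gene identifier. Symbols came from the platform annotation, which gives 1 symbol for 23978 probes and none for 1719. Every member gene with a tested probe was named, as were untested activators, immunoproteasome subunits and chaperones and any member on the DNA array. Other untested genes were named from their detection after values were seen. Members, particles and lists were chosen with earlier results of these data known. Alternatives covered scaling, offset, background, filter, variance trend, chip, replicate number and each array left out. Counts by order of the arrays under each scaling and for each microvesicle array were added after seeing the data.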

Additional observations from a re-analysis of the deposited data

How the results depend on the processing

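Counts of called probes depended on scaling and on the spread taken for the vesicles; the cause was not tested. Over all tested probes, 7 were called higher and 1651 lower with median scaling, 5 and 1416 without normalization, 16 and 163 without a filter, 10 and 677 with a variance trend, and 968 and 1735 with chip as a block. Of the member probes, these settings called 0 and 10, 0 and 9, 0 and 0, 0 and 1, and 8 and 8. With each array left out in turn, 0 to 997 of all probes were higher and 0 to 2718 lower, and 0 to 8 and 0 to 16 of the members. Leaving out an array of a group assumes that the remaining one varies like the other group. An offset of 50, no background correction, the authors' processed values, a detection p under 0.05 in the filter, and a filter on all 4 RNA arrays called no member.

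The labels state no pairing by replicate number. Across tested probes, deviations of same-numbered arrays from their group means correlated at -0.237. This value cannot decide whether samples were paired, since a single microvesicle RNA array lay on each chip and probes are not independent. The replicate block called 0 member probes and 0 of all probes.

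The core median was 0.09 with the mean over a gene's tested probes, 0.01 without immunoproteasome subunits, 0.06 without a filter, -1.24 with median scaling, -1.16 without normalization and -1.10 to -0.27 with an array left out. The regulatory median was 0.72 on probes detected on all 4 RNA arrays, 0.51 without chaperones and immunoproteasome subunits, and -0.21 to 0.27 with an array left out. Core minus regulatory turned to 0.13 with the mean over a gene's tested probes. Without a filter it was 0.09, a value that takes in background readings of undetected genes. Core minus regulatory was -0.49 without chaperones and immunoproteasome subunits, and -1.31 both with median scaling and without normalization. It was -1.47 on all 4 arrays and -1.37 to -0.14 with an array left out. On the DNA array, 4 members passed a detection p of 0.05 and 0 passed 0.001.

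Signs turned as follows. With median scaling, Psmb1 was at -1.04, Psmb4 at -1.12, the second Psmb7 probe at -0.25 and Psmd10 at 0.07, and without normalization they were at -0.97, -1.04, -0.17 and 0.15. With the authors' processed values Psmb3 was at -0.11 and that Psmb7 probe at -0.03. With chip as a block, Psma2 was at -0.33, the bright Psmb10 probe at 0.49, Psmb3 at -0.90, Psmc2 at -0.14, Psmd13 at 0.79 and Psmg1 at 0.32. With an array left out the ranges were -0.29 to 1.67 (Psma2), -0.54 to 0.90 (Psmb1), -1.98 to 0.49 (Psmb10), -0.71 to 1.66 (Psmb3), -0.64 to 0.64 (Psmb4), -0.47 to 0.50 and -0.83 to 0.12 (Psmb7), -0.14 to 2.32 (Psmc2), -0.47 to 0.27 (Psmd10), -0.87 to 0.79 (Psmd13) and -1.47 to 0.35 (Psmg1). No setting turned the sign of Psma7, Psmb2, the second Psmb10 probe, Psmc3, Psmc4, Psmd4, Psmd8, Psme1, Psme2, Psmg2 or Psmg3.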
